A study of Mus musculus with 12 samples.

Results

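Cells sorted as EYFP-positive from ER71 mutant embryos were compared with cells sorted in the same way from wild-type embryos, across all genes of the array. The comparison took 6 of the 12 arrays of the study, 3 mutant positive and 3 wild-type positive, chosen by the genotype and the sort given in the sample titles. ER71 is the older name of Etv2. EYFP is a yellow fluorescent protein. Every array held RNA of embryos at embryonic day 8.0 on a mixed background of the C57BL/6 and FVB strains. The 4 groups of 3 arrays were mutant EYFP-positive, wild-type EYFP-positive, mutant EYFP-negative and wild-type EYFP-negative cells. All embryos belonged to the ER71 EYFP line, so the wild-type groups carry the reporter too. The cells had been released with trypsin and separated on a BD FACSAria sorter, and the RNA, extracted with Trizol, went through repeated rounds of amplification. The sources used here do not name what drives EYFP, which part of Etv2 is altered in the mutants, or whether an array holds 1 embryo or a pool. The p-values below therefore measure the spread between these arrays, part of which may be technical.

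Etv2 encodes a transcription factor of the ETS family. In the early mouse embryo it is switched on for a short time in mesoderm that carries the VEGF receptor Kdr, and it is required there for the first endothelial and blood cells. ETS factors bind DNA words built around GGAA, and Etv2 is known to act on genes of endothelium and early blood such as Tal1, Fli1, Tek and Cdh5. The mesoderm in which it is active lies beside and overlaps with mesoderm that gives rise to the heart, the allantois and the lateral plate.

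The brightest of a gene's probe sets, by its mean over the 12 arrays, stands for the gene, and its level is given on the log2 scale of the RMA method, so a difference of 1 is a 2-fold change. Of 18193 genes, 1450 (7.97%) passed an adjusted p of 0.05 between mutant and wild-type positive cells in limma, a linear model fitted to all genes at once. Of these, 769 (4.23% of all genes) were higher and 681 (3.74%) were lower in mutant positive cells. The falls were larger than the rises. At least 4-fold changes numbered 19 among the rises and 128 among the falls. The median difference over all genes was 0.012. The arrays of the 2 groups did not overlap for 4672 genes (25.7%), with mutant cells higher for 2517 (13.8%) and lower for 2155 (11.8%). Without mutant positive array 1 the rises numbered 446 and the falls 586.

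**Figure D1:**
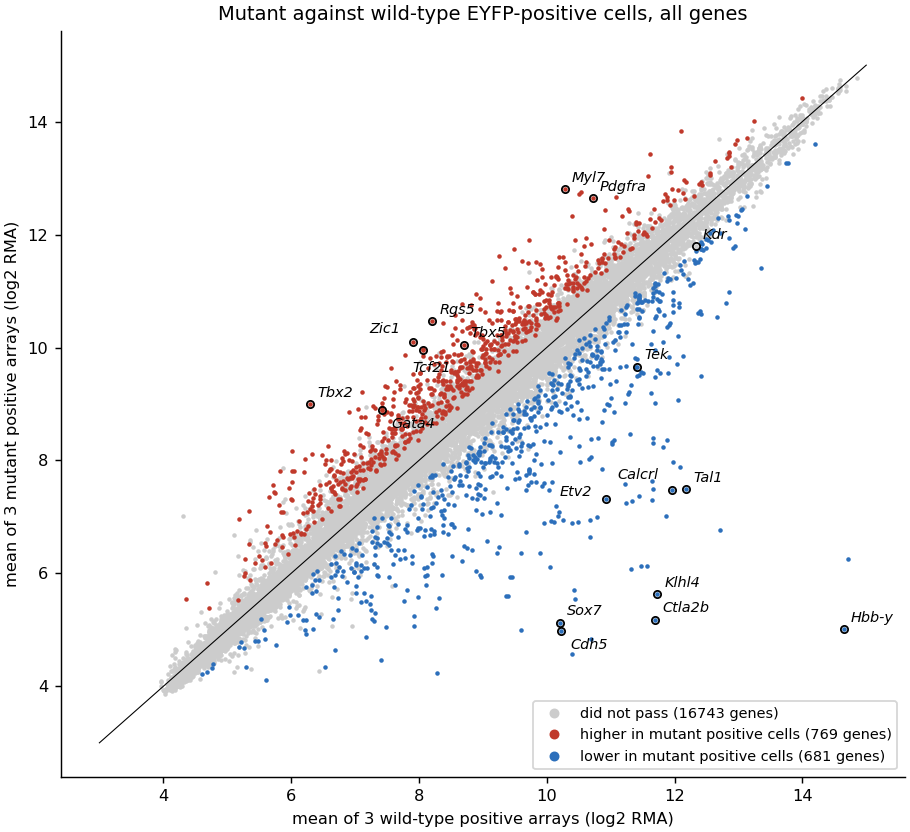
Mean level of each of 18193 genes over 3 wild-type positive arrays (horizontal axis, log2 RMA) and 3 mutant positive arrays (vertical axis, log2 RMA), with the 769 genes higher in mutant cells in red, the 681 lower in blue and the line of equal levels. The lower points reach far from the line (Cdh5 at 4.98 in mutant and 10.23 in wild-type cells), while the higher ones form a band close to it.

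The marker genes followed the labels. Etv2 itself read 7.40, 7.26 and 7.28 on mutant positive arrays, against 10.72, 10.70 and 11.36 on wild-type positive arrays. On mutant and wild-type negative arrays its mean was 7.39 and 7.64. Where its probe set lies relative to the altered part of the gene is not given in the sources used here. The level of Etv2 therefore checks the labels and not the alteration. Cdh5, the cadherin of endothelial junctions, and Tal1, a regulator of blood and endothelium, fell in mutant positive cells. The heart genes Tbx5, Gata4 and Myl7 rose. In bulk samples such as these, fewer cells of a type and less RNA per cell cannot be told apart.

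Several array measures moved with the comparison. The 3′ minus 5′ signal of the actin control, which grows as RNA is degraded or amplified in a shortened form, was 1.53 ± 0.11 in mutant positive and 2.4 ± 0.78 in wild-type positive arrays (SD, n = 3 each). It reached 3.048 on wild-type positive array 1 and was 1.543 on wild-type positive array 3, inside the mutant range of 1.404 to 1.617. Mutant positive array 1 carried markers of visceral endoderm, the yolk sac epithelium, with Afp at 11.98 and Ttr at 12.21, against at most 5.02 and 6.74 on the other 5 positive arrays. Wild-type positive array 1 had the Y-linked gene Eif2s3y at 10.81, against at most 4.48 on the other 5, and the lowest Xist. The part of RNA quality, endoderm carry-over and embryo sex in the results was not tested. Leaving out the positive arrays numbered 1 of both genotypes, a setting chosen after seeing the data, left 892 genes past the threshold, 402 higher and 490 lower, with 0 in the opposite direction.

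**Figure D2:**
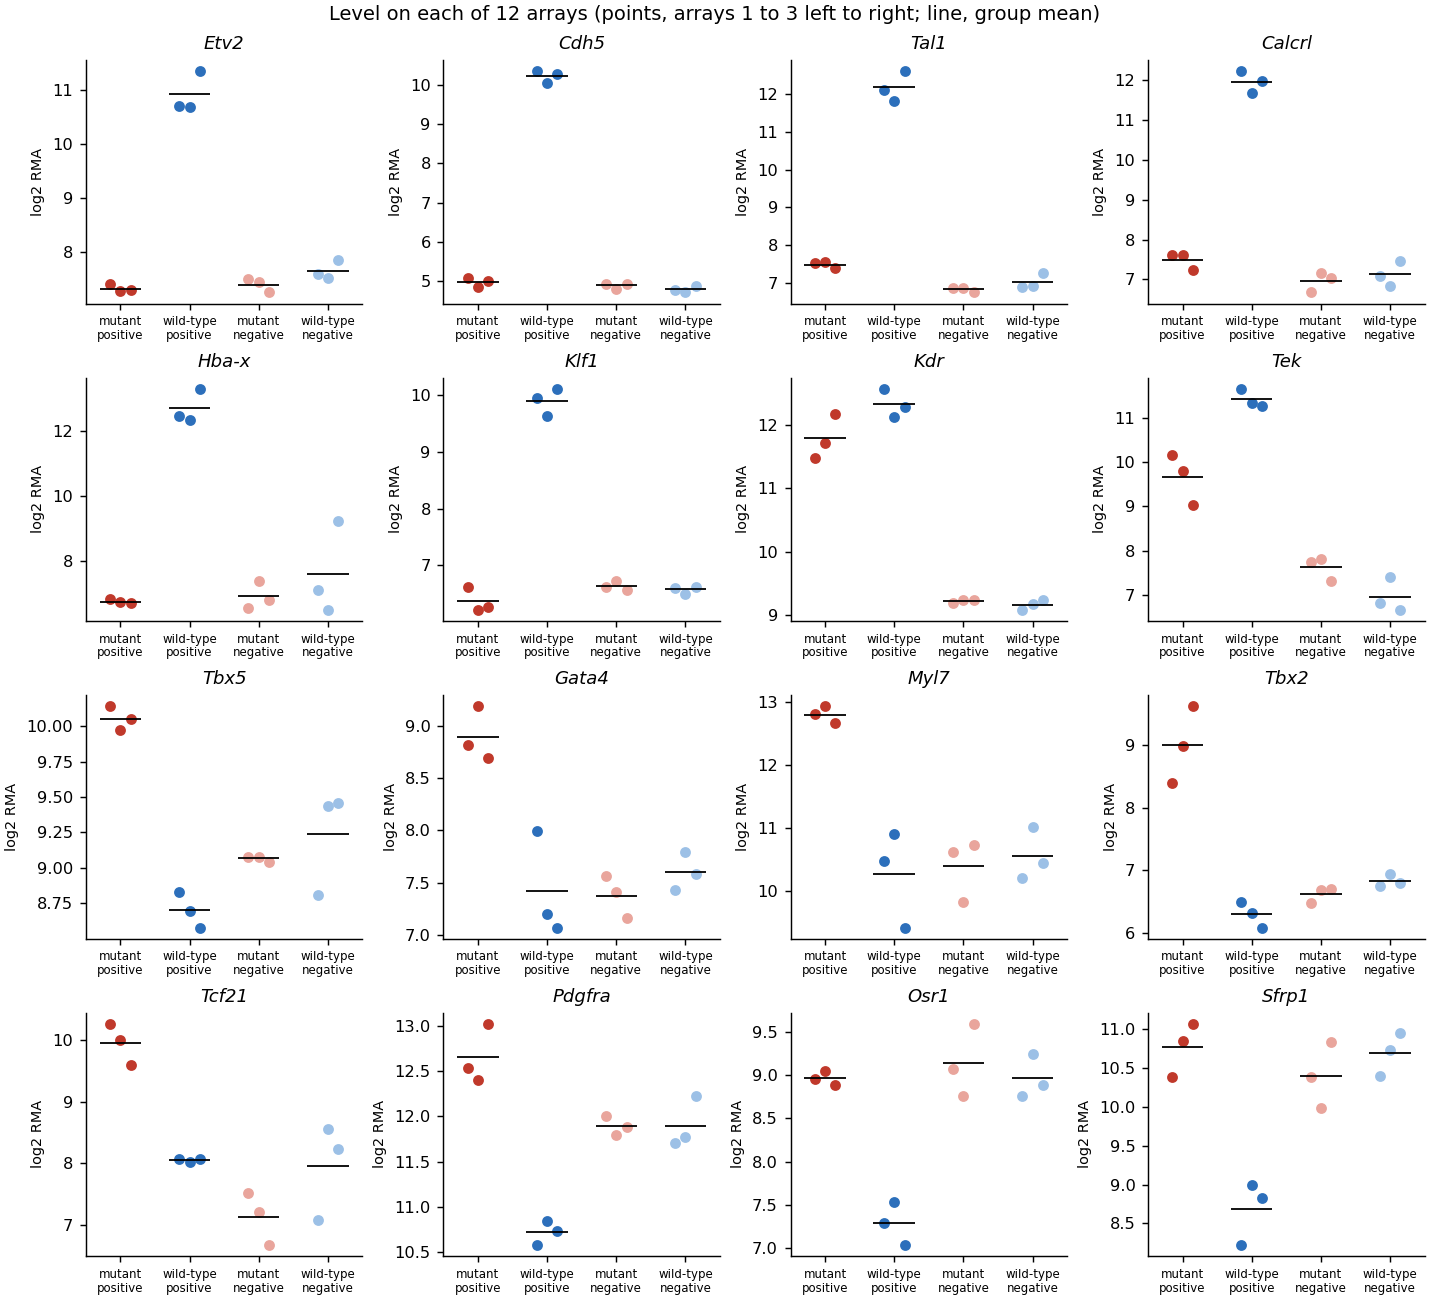
Level of 16 genes (log2 RMA, vertical axes with their own ranges) on each of the 12 arrays, grouped as mutant positive, wild-type positive, mutant negative and wild-type negative, with a line at each group mean. Etv2, Cdh5, Tal1, Calcrl and Klf1 lay in mutant positive cells near their level in negative cells, Kdr and Tek stayed above it, and Tbx2, Myl7 and Tcf21 were highest in mutant positive cells.

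The endothelial fall covered nearly the whole list of junction, surface and matrix genes. Of 32 measured members, 30 fell, with a median of -2.45 against 0.012 over all genes. The 3 mutant arrays lay below the 3 wild-type arrays for 31, beside 11.8% of all genes. Cldn5, a tight-junction claudin, fell 29.1-fold, Mmrn2, an endothelial matrix glycoprotein, 37.9-fold and Icam2, an adhesion molecule, 30.0-fold. Cd34, a sialomucin of endothelium and blood progenitors, read 7.35, 6.43 and 6.89 on mutant positive arrays, against 10.22, 10.40 and 10.58 on wild-type positive arrays. Its change was -3.51 ± 0.22 (limma SE, adjusted p = 1.58e-06). Nos3, the nitric oxide synthase of endothelium, fell 4.45-fold, and Plvap, a protein of endothelial fenestrae, 7.96-fold. Genes later used as markers of lymphatic and sinusoidal vessels fell as well, Lyve1 by 13.7-fold and Stab1 by 13.9-fold. Pecam1 fell by 0.68, and its adjusted p of 0.0161 became 0.0569 without mutant positive array 2. Vwf, at 5.15, 5.07 and 4.96 on mutant arrays against 8.39, 5.38 and 7.10 on wild-type arrays, did not pass (adjusted p = 0.0641), and passed without wild-type positive array 2 (adjusted p = 0.00127).

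Some of the 20 largest falls belonged to genes outside the endothelial list. Ctla2b, a small cysteine protease inhibitor, read 5.28, 5.32 and 4.96 on mutant positive arrays, against 11.73, 11.42 and 11.92 on wild-type positive arrays. Its change of -6.51 ± 0.14 corresponds to 90.9-fold (limma adjusted p = 4e-10), and its close relative Ctla2a fell 56.4-fold. Probe sets of such near-identical relatives may share signal. Klhl4, a kelch-family protein, had 6.64, 5.14 and 5.13 on mutant arrays, against 11.40, 11.71 and 12.07 on wild-type arrays. Tmem255a fell 43.1-fold. Clec1b, the platelet receptor for podoplanin, fell 26.3-fold, although wild-type positive array 2, at 8.57, was well below the other wild-type arrays at 11.11 and 11.60. Mutant values near 5 lie below the arrays' 25th percentiles, which were 5.617 to 5.688, so the size of these folds is uncertain.

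Transcription factors of endothelium fell in large part. Of 25 listed ETS, SoxF and forkhead factors, 11 fell and 1 rose. The falls numbered 7 without the positive arrays numbered 1 of both genotypes. The SoxF factors, which act together in vessel and lymphatic development, fell strongly, Sox7 by 33.9-fold, Sox17 by 18.5-fold and Sox18 by 16.3-fold. Sox17 also marks endoderm and differed among the mutant arrays, at 6.97, 7.72 and 8.95, against 12.10, 11.82 and 12.35 on wild-type arrays. The groups did not overlap for any of them. Elk3, an ETS factor of the ternary complex group, read 8.66, 8.31 and 8.21 on mutant arrays, against 11.48, 11.71 and 11.80 on wild-type arrays, and fell 9.64-fold (limma adjusted p = 2.93e-06). Fli1 fell 20.3-fold. Ets2 fell by 1.67 and Foxo1, a forkhead factor needed for vessel formation, fell by 1.43, on the log2 scale. Etv5, an ETS factor that acts downstream of FGF signals, was the 1 factor to rise, by 0.85 ± 0.16. Foxc1 and Foxc2, forkhead factors shared by endothelium and other mesoderm, differed by 0.09 ± 0.33 and -0.01 ± 0.21, with overlapping arrays.

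The words bound by ETS factors were looked up in promoter windows because the endothelial genes fell together. The windows are RefSeq's for GRCm38.p6 and span 250 bases before to 50 after a gene's start, and 14452 of the 18193 genes had one. The ETS word CAGGAAG, on either strand, was present for 26 of 92 genes (28.3%) that fell at least 4-fold, 99 of 528 (18.8%) of all that fell, 70 of 598 (11.7%) that rose and 14.9% of all genes with a window. The ETS word CCGGAAG, typical of housekeeping promoters, was less frequent among changed genes than over all. It was present for 3.26% of genes that fell at least 4-fold, 9.47% of all that fell, 11.7% that rose and 15% of all. The GATA word AGATAAG was present for 8.7%, 4.73%, 3.34% and 2.84% in the same order. CCGGAAG was present for 7.28% of genes that rose at least 2-fold and 6.05% that fell as much. Its low share was thus not particular to the falls. Both ETS words end in GGAAG and differ before it, so 1 place cannot match both. Over all 32851 windows of the table the shares were 13.3%, 8.86% and 3.04%. Such matches are descriptions, with no test, and do not show binding.

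The 250 bases before the start are shown for 5 genes whose falls lead this section and hold CAGGAAG, for Spns2, which holds AGATAAG, and for Myl7, which rose and holds none of the 3 words. Capitals mark the word, or its reverse complement where it lies on the other strand. Sequences run 5′ to 3′ on the strand of the gene. Ctla2b lies on the minus strand at chr13:60897448-60897697, Calcrl on the minus strand at chr2:84425267-84425516, Hhex on the plus strand at chr19:37434591-37434840 and Elk3 on the minus strand at chr10:93311160-93311409. Cd34 lies on the plus strand at chr1:194938571-194938820, Spns2 on the minus strand at chr11:72475028-72475277 and Myl7 on the minus strand at chr11:5898783-5899032. The first base of the word stood 18 bases before the start in Ctla2b, which holds another copy at 152 on the other strand, 67 before it in Calcrl, 98 in Hhex and 27 in Elk3.
Ctla2b: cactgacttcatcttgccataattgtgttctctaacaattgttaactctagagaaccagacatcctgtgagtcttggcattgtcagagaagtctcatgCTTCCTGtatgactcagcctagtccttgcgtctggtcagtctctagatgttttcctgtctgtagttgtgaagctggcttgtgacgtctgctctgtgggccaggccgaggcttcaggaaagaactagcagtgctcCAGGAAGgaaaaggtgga
Calcrl: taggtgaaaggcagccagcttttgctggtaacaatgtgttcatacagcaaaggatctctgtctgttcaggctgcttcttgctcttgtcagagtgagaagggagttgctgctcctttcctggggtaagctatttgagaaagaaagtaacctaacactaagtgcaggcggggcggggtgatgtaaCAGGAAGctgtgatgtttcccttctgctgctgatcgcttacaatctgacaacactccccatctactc
Hhex: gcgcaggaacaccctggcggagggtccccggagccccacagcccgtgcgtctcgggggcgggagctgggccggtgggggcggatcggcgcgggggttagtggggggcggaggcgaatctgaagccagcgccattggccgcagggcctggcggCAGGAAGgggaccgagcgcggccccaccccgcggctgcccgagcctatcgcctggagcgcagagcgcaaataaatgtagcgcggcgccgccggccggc
Elk3: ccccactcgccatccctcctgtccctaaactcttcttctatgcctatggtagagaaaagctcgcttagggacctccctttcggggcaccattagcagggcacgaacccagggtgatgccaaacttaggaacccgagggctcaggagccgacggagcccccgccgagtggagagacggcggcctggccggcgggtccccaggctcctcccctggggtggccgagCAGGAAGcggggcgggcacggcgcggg
Cd34: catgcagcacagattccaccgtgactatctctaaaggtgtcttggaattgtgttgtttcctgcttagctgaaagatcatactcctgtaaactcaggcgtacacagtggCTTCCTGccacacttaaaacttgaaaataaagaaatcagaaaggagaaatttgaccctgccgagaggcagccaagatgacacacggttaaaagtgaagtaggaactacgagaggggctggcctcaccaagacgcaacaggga
Spns2: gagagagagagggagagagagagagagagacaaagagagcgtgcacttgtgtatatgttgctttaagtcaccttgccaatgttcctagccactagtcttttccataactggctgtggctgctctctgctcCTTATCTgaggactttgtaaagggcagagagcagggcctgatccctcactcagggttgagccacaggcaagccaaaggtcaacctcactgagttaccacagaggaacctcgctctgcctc
Myl7: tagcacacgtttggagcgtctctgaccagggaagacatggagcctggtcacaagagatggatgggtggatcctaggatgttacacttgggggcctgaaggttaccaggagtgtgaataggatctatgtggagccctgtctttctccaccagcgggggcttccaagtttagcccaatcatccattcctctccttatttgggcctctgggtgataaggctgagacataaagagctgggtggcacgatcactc

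Receptors and ligands of the VEGF and Tie systems divided by role. Flt4, the receptor for Vegfc, read 6.77 to 7.10 on mutant positive arrays, against 10.64 to 10.76 on wild-type positive arrays, a fall of 13.3-fold (limma adjusted p = 3.19e-09). Flt1, a receptor that binds and restrains VEGF, fell 6.45-fold, and Tie1 fell 4.89-fold. Kdr, the main signalling receptor for VEGF, did not pass. It read 11.48, 11.72 and 12.17 on mutant arrays, against 12.57, 12.13 and 12.28 on wild-type arrays, a difference of -0.54 ± 0.16 (adjusted p = 0.0715) that passed without mutant positive array 3 (adjusted p = 0.0114). The co-receptor Nrp1 differed by 0.12 ± 0.18 and the ligand Vegfc by -0.10 ± 0.18, with overlapping arrays. Other ligands rose. Pgf, placental growth factor, read 8.89, 9.14 and 9.22 on mutant arrays, against 7.43, 7.58 and 7.77 on wild-type arrays (1.49 ± 0.16, adjusted p = 0.000188), and Vegfa rose by 0.50 ± 0.09. The 4 rises among the 15 members included Angpt1 and Vegfd, and numbered 2 without mutant positive array 1 or wild-type positive array 3. Angpt1 was also lost without mutant positive array 2 or wild-type positive array 2 (adjusted p 0.0709 and 0.106), and Vegfd without mutant positive array 3 or wild-type positive array 1 (0.119 and 0.074) or with the replicate number as a block (0.0544).

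Receptors that signal through G proteins changed in both directions. Calcrl and Ramp2, which together form the adrenomedullin receptor of endothelium, fell 22.2-fold and 5.41-fold. Calcrl read 7.61, 7.61 and 7.23 on mutant positive arrays, against 12.23, 11.67 and 11.97 on wild-type positive arrays. S1pr1, the endothelial receptor for sphingosine 1-phosphate, fell 4.57-fold and Spns2, the transporter that exports this lipid, 8.37-fold. Edn1, the vasoconstrictor peptide endothelin, fell 2.23-fold. Rgs5, a regulator of G protein signals known from mural cells, rose. It read 9.56, 10.22 and 11.64 on mutant arrays, against 8.32, 8.12 and 8.19 on wild-type arrays, and its mutant arrays differed widely among themselves. Ackr3, a scavenger receptor for the chemokine Cxcl12, rose by 1.09 ± 0.19 (limma adjusted p = 0.00411). In all, 7 of 23 listed members fell and 4 rose, and the rises numbered 2 without mutant positive array 1.

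Notch and arterial genes fell in smaller steps. Of 24, 9 fell, but 5 without mutant positive array 1, and the 1 rise was lost without mutant positive array 1 or 3 or wild-type positive array 1 or 2. Gja4, a connexin of arterial endothelium, had 5.46, 5.66 and 5.64 on mutant arrays, against 8.06, 7.60 and 8.30 on wild-type arrays, a fall of 5.28-fold. The Notch target and feedback regulator Nrarp fell by 1.21 and Hey1 by 0.85. Jag1, a ligand used in many tissues, and Hey2 did not pass, at -0.09 ± 0.24 and 0.25 ± 0.19.

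**Figure D3:**
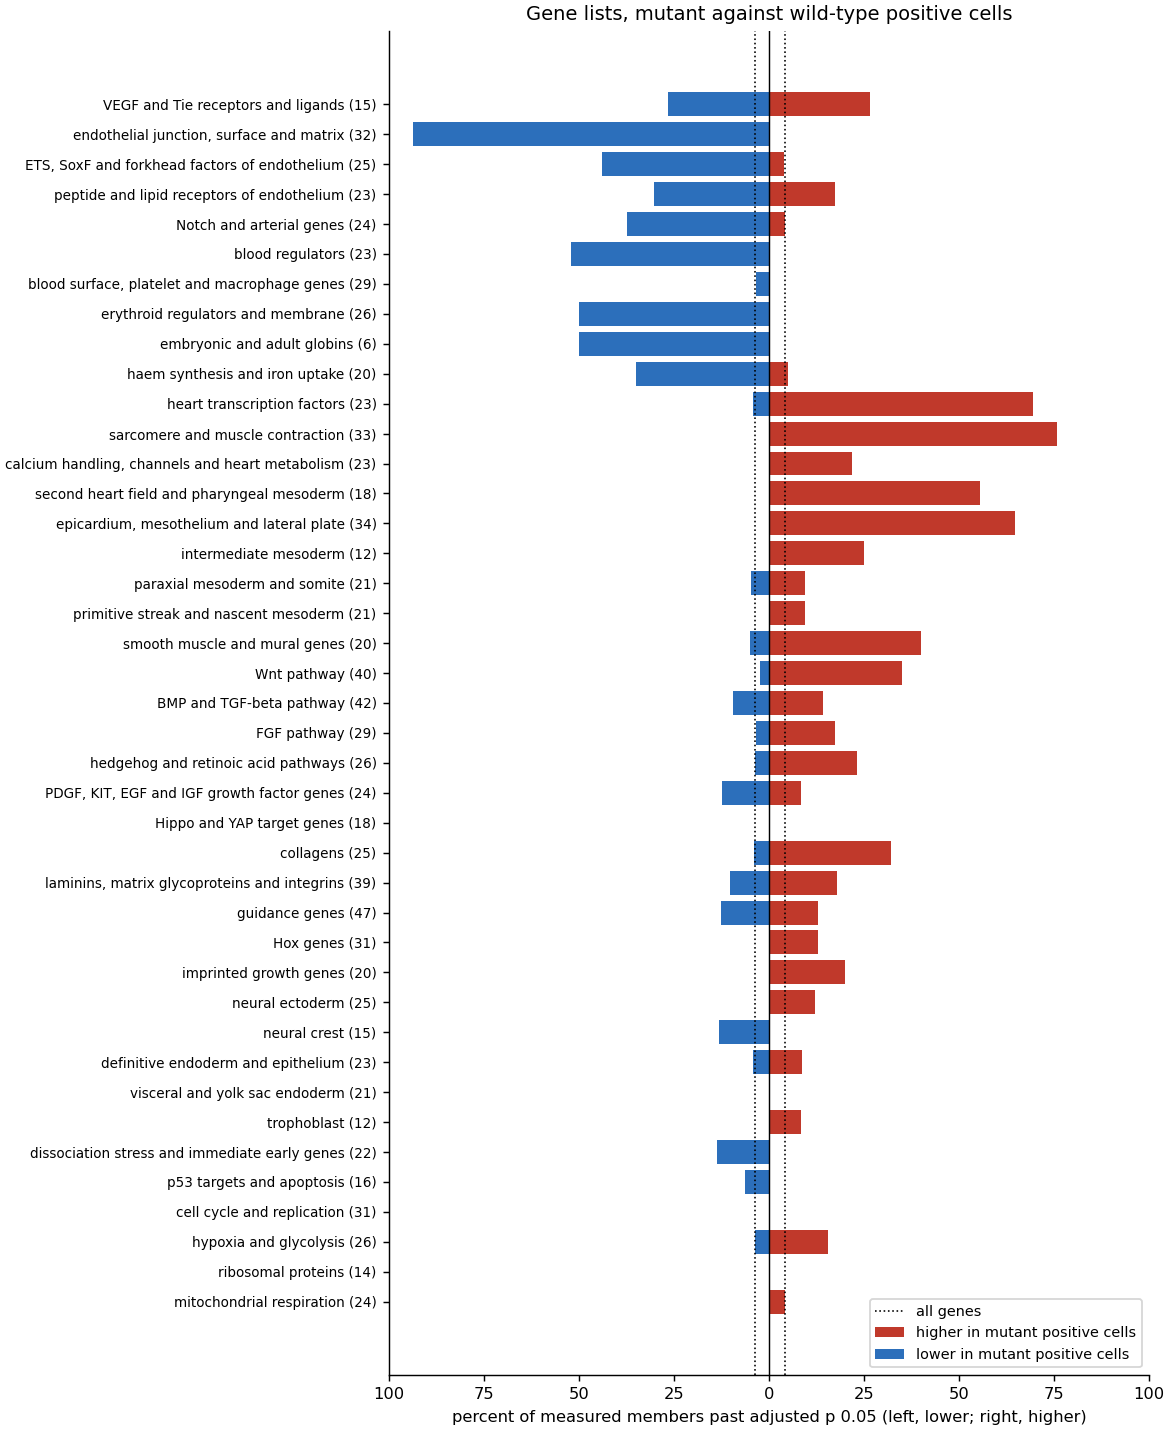
Share of the measured members of each gene list shown (percent, horizontal axis) that passed an adjusted p of 0.05, with falls in mutant positive cells drawn to the left in blue, rises to the right in red, the number measured in brackets and dotted lines at the share over all genes (3.74 lower, 4.23 higher). Endothelial junction genes (30 of 32 lower) and sarcomere genes (25 of 33 higher) stand at the ends of the range.

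Some endothelial genes fell only part of the way. The fall against wild-type positive cells and the level above mutant negative cells both use the mutant positive arrays, so the values are given side by side and not as separate support. Between mutant positive and mutant negative cells, 975 genes (5.36%) passed, 558 higher (3.07%) and 417 lower (2.29%). With the positive and negative arrays of the same number and genotype as a random replicate block, 1514 passed, 862 higher and 652 lower. The higher genes numbered 368 without mutant negative array 3, and the lower ones 257 and 275 without mutant positive array 2 or 3. Of the 15 VEGF and Tie genes 8 were higher in mutant positive than in mutant negative cells, 6 without mutant negative array 1. They included Tek, which fell against wild-type positive cells. Pgf, Vegfa and Angpt1, which rose there, and Kdr, Nrp1 and Vegfc, which did not pass there, were also among them. The falling genes Flt1, Flt4 and Tie1 were not. Of the 32 endothelial junction genes 4 were higher in mutant positive than in mutant negative cells. The count of 4 became 2 without array 1 of the mutant positive cells or array 2 or 3 of the mutant negative cells. Tek, the receptor for angiopoietins, read 10.15, 9.80 and 9.03 on mutant positive arrays, against 11.65, 11.33 and 11.27 on wild-type positive arrays and a mean of 7.62 in mutant negative cells. It differed by -1.76 ± 0.28 from wild-type positive cells and stood 2.04 above mutant negative cells (limma adjusted p = 0.00136).

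Plvap averaged 9.07 in mutant positive, 12.06 in wild-type positive and 7.53 in mutant negative cells. Tmem204, a claudin-like membrane protein of vessels, averaged 6.95, 10.25 and 4.50 in the same order, with mutant positive arrays at 7.86, 7.27 and 5.71. Gng11, a G protein subunit, averaged 10.36, 11.88 and 8.59. All 3 passed both comparisons. Kdr averaged 11.79, 12.33 and 9.22 and Nrp1 12.74, 12.61 and 11.07, and they were 2.57 and 1.67 above mutant negative cells. The junction and surface genes Cdh5, Icam2 and Stab1 showed no such remainder, with differences of 0.10, 0.01 and 0.00 from mutant negative cells. For Flt4 and Sox18 the differences were 0.10 and -0.05.

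**Figure D4:**
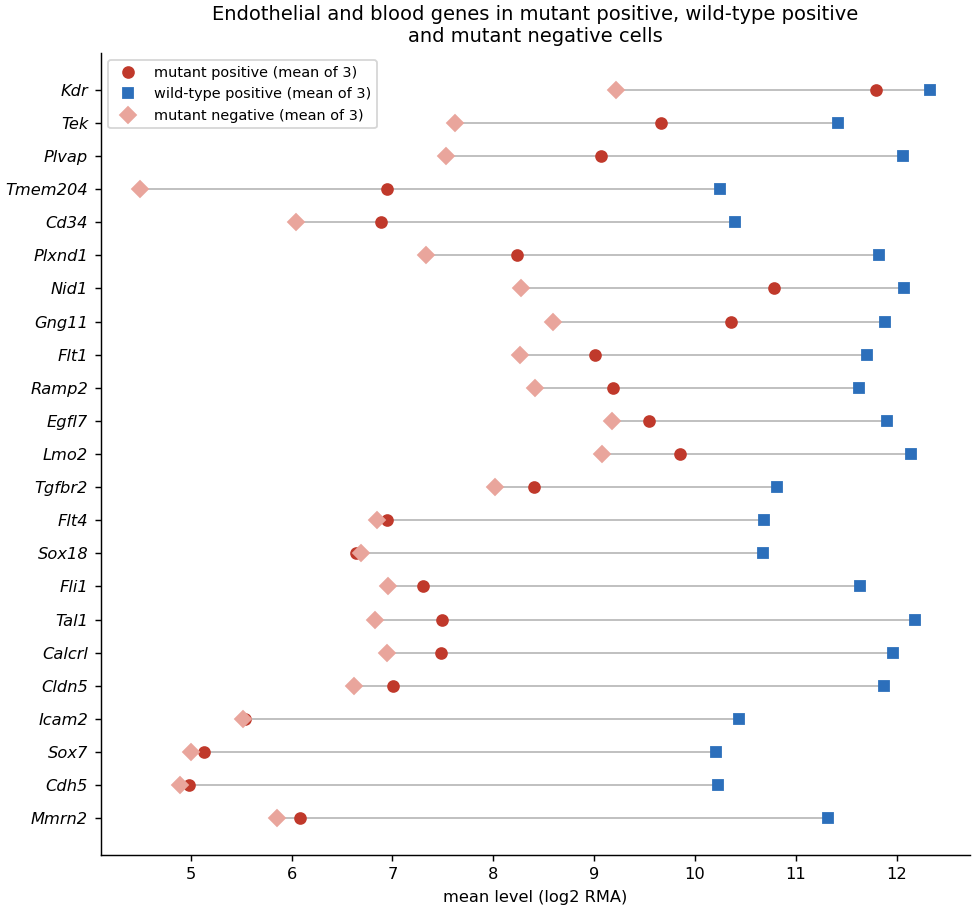
Mean level (log2 RMA, horizontal axis) of 23 endothelial and blood genes over 3 arrays of mutant positive, wild-type positive and mutant negative cells, with a grey line joining the wild-type positive and mutant negative means. Kdr (11.79 in mutant positive cells) lies close to the wild-type positive mean, Tek and Tmem204 lie between the groups, and Cdh5 and Icam2 lie on the mutant negative mean.

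The choice of 1 probe set per gene left out the fall of Cd93 and gave smaller falls for Erg, Eng and Notch4. For Cd93, a surface receptor of endothelium, the brightest probe set differed by -0.71 and did not pass (adjusted p = 0.215 over all named probe sets). Another, equally bright on average, read 5.83, 5.92 and 5.83 on mutant positive arrays, against 10.79, 10.76 and 10.97 on wild-type positive arrays (-4.98 ± 0.11, limma adjusted p = 1.2e-09). Erg, an ETS factor that maintains endothelial identity, differed by -0.32 ± 0.09 on its brightest probe set and by -4.11 ± 0.19 on another, with 5.71, 5.75 and 6.12 in mutant cells against 9.98, 9.61 and 10.32 in wild-type cells. Eng, a co-receptor for BMP9 and TGF-beta, showed -0.43 ± 0.11 and -3.29 ± 0.18, and Notch4 -0.36 ± 0.08 and -2.06 ± 0.20. For each of these 4 genes the brightest probe set gave the smaller difference. On that probe set the call was lost for Erg without any 1 of the 6 positive arrays (adjusted p 0.0597 to 0.172) or with a replicate block (0.0691, or 0.054 with the random block of genotype and number), for Eng without any but mutant positive array 3 (0.063 to 0.112) and for Notch4 without mutant positive array 1 or 2 or wild-type positive array 2 or 3 (0.059 to 0.0726). Of 9010 genes with several probe sets, 1141 had at least 1 past the threshold, 133 had all past it in 1 direction and 0 had probe sets past it in opposite directions.

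Many blood regulators and genes of the first red cells fell. Of 23 blood regulators, 12 fell. Hhex, a homeobox factor of blood, endothelium and endoderm, read 7.63, 7.14 and 7.71 on mutant positive arrays, against 11.90, 11.48 and 11.60 on wild-type positive arrays, a fall of 17.9-fold (limma adjusted p = 9e-08). Lyl1, the closest relative of Tal1, fell 9.47-fold. Mecom, a zinc-finger factor of haematopoietic stem cells, fell 4.65-fold and Nfe2, a factor of platelets and red cells, 4.45-fold. Gata2 fell by 0.75, a call lost without mutant positive array 1 or 2 or wild-type positive array 2 or 3 (adjusted p 0.0512 to 0.076). Spi1, the regulator of myeloid cells, did not pass (-0.11 ± 0.09). Of 29 listed genes of platelets, macrophages and definitive blood surface 1 was lower, near the share of 3.74% over all genes. The count was 2 without mutant positive array 1, 0 without mutant positive array 3 and 3 without wild-type positive array 2. At an unadjusted p under 0.05 in limma, which 22.3% of all genes reached, 5 were lower and 0 higher.

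Of 26 erythroid regulators and membrane genes, 13 fell. Klf1, the factor that activates globin genes, read 6.62, 6.21 and 6.27 on mutant positive arrays, against 9.95, 9.63 and 10.12 on wild-type positive arrays, a fall of 11.6-fold (limma adjusted p = 4.47e-08). Slc4a1, the anion exchanger of the red cell membrane, fell 40.3-fold. Hemgn, a nuclear protein of blood cells, fell 58.6-fold and Rhag, a membrane gas channel of red cells, 7.72-fold. Car2, a carbonic anhydrase, had 9.60, 9.55 and 9.33 on mutant arrays, against 12.51, 12.12 and 12.63 on wild-type arrays, and a mean of 10.45 in mutant negative cells, above the level in mutant positive cells. Groups overlapped for none of these. Of 20 haem synthesis and iron uptake genes 7 fell and 1 rose, the rise being lost without mutant positive array 2 or any 1 wild-type positive array. The falls included Alas2 (4.23-fold), Cpox (3.79-fold), Fech (2.4-fold) and the mitochondrial iron importer Slc25a37 (3.93-fold). Urod, another enzyme of haem synthesis (-0.20 ± 0.18), and the transferrin receptor Tfrc (-0.16 ± 0.12) did not pass. Of 6 globins the 3 embryonic ones fell. Hbb-bh1 read 6.37, 6.30 and 6.09 in mutant positive cells, against 14.74, 14.56 and 14.82 in wild-type positive cells, where it stood near the arrays' maxima of 14.968 to 15.169, so the size of its fall is uncertain. The adult globin Hba-a1 did not pass (-0.12 ± 0.10).

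Growth factor and guidance genes changed in both directions. Of 24 PDGF, KIT, EGF and IGF genes 3 fell and 2 rose, 4 without mutant positive array 1. Igf1, insulin-like growth factor 1, read 7.79, 7.18 and 7.15 on mutant positive arrays, against 12.05, 10.87 and 11.42 on wild-type positive arrays (16.8-fold lower, limma adjusted p = 3.46e-06). Igfbp3, a protein that binds it, had 8.38, 8.48 and 8.26 on mutant arrays, against 12.01, 11.37 and 12.29 on wild-type arrays (11.4-fold lower). Igf2, the main embryonic ligand, did not pass, at 0.44 ± 0.16. Tgfbr2, the type II receptor for TGF-beta, had 8.65, 8.47 and 8.09 on mutant arrays, against 11.04, 11.02 and 10.35 on wild-type arrays (5.29-fold lower). Of 47 guidance genes 6 fell and 6 rose, beside 3.74% and 4.23% of all genes. The falls numbered 3 and the rises 2 when only the positive groups were fitted. With each array centred on its median the rises numbered 3. Plxnd1, the semaphorin receptor that steers vessels, fell by 12.1-fold and Plxnc1 by 4.36-fold. The mutant and wild-type arrays of these 5 falling genes did not overlap.

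Heart genes rose over a wide front. Of 23 heart transcription factors, 16 rose and 1, Mef2a, fell, with a median of 1.00 against 0.012 over all genes. The rises numbered 9 when only the positive groups were fitted, and 9 without the positive arrays numbered 1 of both genotypes. Tbx2, a repressor of the chamber programme in the atrioventricular canal and outflow tract, rose the most among the 23 factors. It read 8.39, 8.99 and 9.62 on mutant positive arrays, against 6.49, 6.32 and 6.09 on wild-type positive arrays (2.70 ± 0.24, 6.5-fold, limma adjusted p = 3.7e-05). Gata5 had 9.15, 8.42 and 8.93 on mutant arrays, against 7.42, 7.50 and 7.48 on wild-type arrays. Tbx1, a regulator of the second heart field and pharynx, rose 3.0-fold. Smarcd3, the BAF60c subunit that lets chromatin remodellers work with heart factors, was even across the mutant arrays at 10.56, 10.57 and 10.59, against 9.14, 8.62 and 7.92 on wild-type arrays. Mef2a, a widely used muscle and vessel factor, fell by 1.72 ± 0.26, and Mef2c, which acts in heart and endothelium alike, did not pass (-0.10 ± 0.18).

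Of 33 sarcomere and contraction genes, 25 rose, with a median of 1.59. Mutant arrays lay above wild-type arrays for 29 of the 33, beside 13.8% of all genes. The skeletal muscle actin Acta1 read 10.55, 9.70 and 9.70 on mutant positive arrays, against 8.20, 8.02 and 7.98 on wild-type positive arrays (3.78-fold, limma adjusted p = 0.000426). Mybpc3, a thick-filament protein, rose 2.32-fold. Myosin light chains of both chambers rose together, the ventricular Myl2 by 4.17-fold and Myl3 by 4.52-fold and the atrial Myl4 by 4.63-fold. Genes shared with smooth muscle also rose, Myl9 by 4.13-fold, Cnn1 by 3.28-fold and Acta2 by 2.36-fold. Cnn1 had 8.15, 7.33 and 6.88 on mutant arrays, against 5.76, 5.79 and 5.67 on wild-type arrays. Levels in wild-type positive cells differed from gene to gene. Actc1, the cardiac actin, read 14.10, 13.87 and 13.52 in mutant positive cells, against 12.37, 12.30 and 11.63 in wild-type positive cells, both far above the arrays' 75th percentiles of 8.798 to 8.9. For the light chains and Tpm1, array 3 was the lowest of the mutant arrays. Sh3bgr and Synpo2, which lie among the largest rises, are genes of muscle and rose 5.16-fold and 4.45-fold.

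Of 23 genes of calcium handling, channels and heart metabolism, which serve the mature heartbeat, 5 rose, beside 4.23% of all genes. The rises numbered 8 without mutant positive array 3 and 3 when only the positive groups were fitted. Bves and Popdc2, popeye-domain proteins of muscle membranes, rose by 1.28 ± 0.13 and 0.95 ± 0.14. Ryr2, the calcium release channel of heart muscle, read 8.78, 9.05 and 8.77 on mutant positive arrays, against 7.14, 7.54 and 6.06 on wild-type positive arrays (3.86-fold, limma adjusted p = 0.00504). The calcium pump Atp2a2 (0.18 ± 0.11) and its regulator Pln (0.14 ± 0.10) did not pass.

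Mesoderm genes beyond the heart muscle rose too. Of 34 genes of epicardium, mesothelium and lateral plate, 22 rose. Prrx2, a homeobox factor of lateral mesenchyme, read 10.84, 11.05 and 10.95 on mutant positive arrays, against 8.89, 8.84 and 8.93 on wild-type positive arrays (4.17-fold, limma adjusted p = 0.000523). Tcf21, a factor of epicardium and visceral mesoderm, had 9.60 to 10.26 on mutant arrays, against 8.02 to 8.08 on wild-type arrays (3.72-fold). Both groups of arrays were tight and far apart for these genes. Twist1 rose 2.37-fold, Msx2, a target of BMP, 3.1-fold, Pitx1, a factor of the hindlimb and posterior lateral plate, 2.52-fold and the keratin Krt8 2.24-fold. In the second heart field list 10 of 18 rose, 6 without mutant positive array 1 or wild-type positive array 1, and Six2 (0.75 ± 0.10) and Eya1 (1.26 ± 0.19) held in each case. Osr1, a factor of intermediate mesoderm and posterior second heart field, had 8.96, 9.05 and 8.89 on mutant arrays, against 7.29, 7.53 and 7.03 on wild-type arrays. Of 20 smooth muscle and mural genes 8 rose and 1 fell, with 2 falls without wild-type positive array 2 or 3. Pdgfrb, the receptor that marks pericytes, did not pass (0.74 ± 0.25, adjusted p = 0.101), although it did without either positive array numbered 1 (adjusted p 0.0354 and 0.0241).

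Genes of other tissues passed in small numbers, to be read beside the 4.23% of all genes that rose and the 3.74% that fell. Rises of 1 to 3 genes put the somite, primitive streak, neural, definitive endoderm and trophoblast lists above the first of these shares. Each of these counts fell to 1 or 0 in some setting, and none is read as a result about its tissue. Among 21 genes of somite and paraxial mesoderm, 2 rose and 1 fell, with 1 rise without any 1 of the 3 mutant positive arrays or wild-type positive array 3. The fall was lost (0 genes) without mutant positive array 1 or 2 or wild-type positive array 1 or 3. The somite factors Meox1 (1.06 ± 0.32) and Tcf15 (0.90 ± 0.34) did not pass, though Tcf15 did without wild-type positive array 1 (limma adjusted p = 0.0433). Of 21 primitive streak genes 2 rose, of 31 cell cycle genes 0 passed in limma, with 7 higher and 1 lower at an unadjusted p under 0.05, and of 14 ribosomal protein genes 0 passed, with 2 higher and 0 lower at that level, which 4053 of all genes (22.3%) reached. Of 25 neural genes 15 were lower in mutant positive than in mutant negative cells, and of 23 definitive endoderm and epithelial genes 13 were. Of 21 visceral and yolk sac endoderm genes 1 was lower there, 11 without mutant positive array 1, and of 12 trophoblast genes 2 were. Between the positive groups 3 of the neural genes rose, among them Zic1 (2.20 ± 0.40), a zinc-finger factor. That count was 1 when only the positive groups were fitted, and the Zic1 call was lost there (limma adjusted p = 0.0531). Sox2, a neural factor, had 9.65, 7.88 and 7.09 on mutant positive arrays, against 8.61, 10.17 and 10.34 on wild-type positive arrays and a mean of 12.42 in mutant negative cells. It did not pass between the positive groups (-1.50 ± 0.57), but did without mutant positive array 1 (adjusted p = 0.0136).

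Genes of several signalling pathways changed too. Of 40 Wnt pathway genes 14 rose and 1 fell, the falls being 0 without mutant positive array 2 or 3 or wild-type positive array 3 and 2 without wild-type positive array 1. Sfrp1, a secreted Wnt antagonist, read 10.38, 10.85 and 11.07 on mutant positive arrays, against 8.22, 8.99 and 8.83 on wild-type positive arrays (4.24-fold, limma adjusted p = 0.000546). The receptors Fzd1 and Fzd7 rose 2.33-fold and 2.17-fold and the antagonist Dkk3 1.95-fold. Of 42 BMP and TGF-beta genes 6 rose and 4 fell, the falls being 2 without mutant positive array 1 or 2. Fst, a secreted activin and BMP antagonist, had 11.78, 12.07 and 10.78 on mutant arrays, against 9.82, 9.66 and 9.34 on wild-type arrays (3.83-fold). Gli2, a transcription factor of the hedgehog pathway, had 11.40, 11.06 and 11.15 on mutant arrays, against 9.42, 10.03 and 10.11 on wild-type arrays (2.55-fold). Cyp26b1, an enzyme that breaks down retinoic acid, fell 2.2-fold.

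The matrix changed in both directions. Col1a2, a fibrillar collagen chain, read 12.05, 12.24 and 12.69 on mutant positive arrays, against 11.42, 11.21 and 10.90 on wild-type positive arrays (2.22-fold, limma adjusted p = 0.00403). Vcan, the large proteoglycan of the cardiac jelly, rose 2.75-fold and Itga8, an integrin chain of mesenchyme, 2.17-fold. Hapln1, the protein that links such proteoglycans to hyaluronan, had 10.63, 11.44 and 10.29 on mutant arrays, against 12.92, 12.78 and 12.70 on wild-type arrays (4.03-fold lower). The integrin chains Itga6 and Itga1 fell 2.09-fold and 2.51-fold. Fn1 (0.24 ± 0.19) and Lamb1 (-0.08 ± 0.11) did not pass. The basement membrane chains Col4a1 and Col18a1 were lower on every mutant array, with differences of -0.60 ± 0.18 and -0.47 ± 0.16, and did not pass. Efnb1, a ligand of Eph receptors, rose by 0.84 ± 0.11, and Dlk1, an imprinted Notch-like membrane protein, by 1.02 ± 0.17.

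Examples of rising genes, drawn after their values were seen, are set beside the negative cells. Some of them were highest in mutant positive cells among all groups. Tbx2 read 8.39 to 9.62 in mutant positive cells, against a mean of 6.30 for wild-type positive cells, and averaged 6.62 in the mutant and 6.83 in the wild-type negative sort. Tcf21 averaged 9.95 in the mutant and 8.06 in the wild-type positive sort, and 7.14 in the mutant and 7.96 in the wild-type negative sort. In the same order Pitx1 averaged 9.88, 8.55, 7.31 and 7.47, and Dlk1 10.74, 9.72, 8.40 and 8.86. Each was higher in mutant positive than in mutant negative cells (limma adjusted p at most 0.00067). Other examples were low in wild-type positive cells beside the other 3 groups. Osr1 averaged 8.97, 7.28, 9.15 and 8.96, Sfrp1 10.77, 8.68, 10.40 and 10.70, Fzd7 11.02, 9.90, 10.93 and 11.14 and Gli2 11.20, 9.85, 11.21 and 11.17. None of these 4 passed between mutant positive and mutant negative cells, where the adjusted p was 0.61 to 1.

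In the negative sort no gene passed. Between mutant and wild-type negative cells 0 of 18193 genes (0%) passed in limma, with a smallest adjusted p of 0.326 and 949 genes at an unadjusted p under 0.05. No probe set passed either when all were tested, and 2 genes passed without mutant negative array 2. The interaction, which takes the genotype difference in positive cells minus that in negative cells, passed for 469 genes (2.58%), above 0 for 177 (0.973%) and below 0 for 292 (1.61%). With the positive and negative arrays of the same number and genotype as a random replicate block it passed for 842 genes, above 0 for 400 and below 0 for 442. It passed for 299 genes without wild-type negative array 2, and above 0 for 82 to 117 without mutant positive array 1, mutant negative array 2 or 3 or any 1 wild-type negative array. It passed below 0 for 26 of 32 endothelial junction genes, 7 of 23 blood regulators and 9 of 26 erythroid genes. It passed above 0 for 10 of 23 heart transcription factors, 14 of 33 sarcomere genes and 15 of 34 epicardial and lateral plate genes. Leaving out 1 array brought these counts down to 5 and 6 for the first and last list, without wild-type negative array 2, and to 4 for the sarcomere, without wild-type negative array 3. Calcrl (-4.30), Hhex (-3.98) and Igf1 (-3.99) were among those below 0, and Prrx1 (2.23), Gata6 (1.72) and Hand2 (1.85) among those above it.

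**Figure D5:**
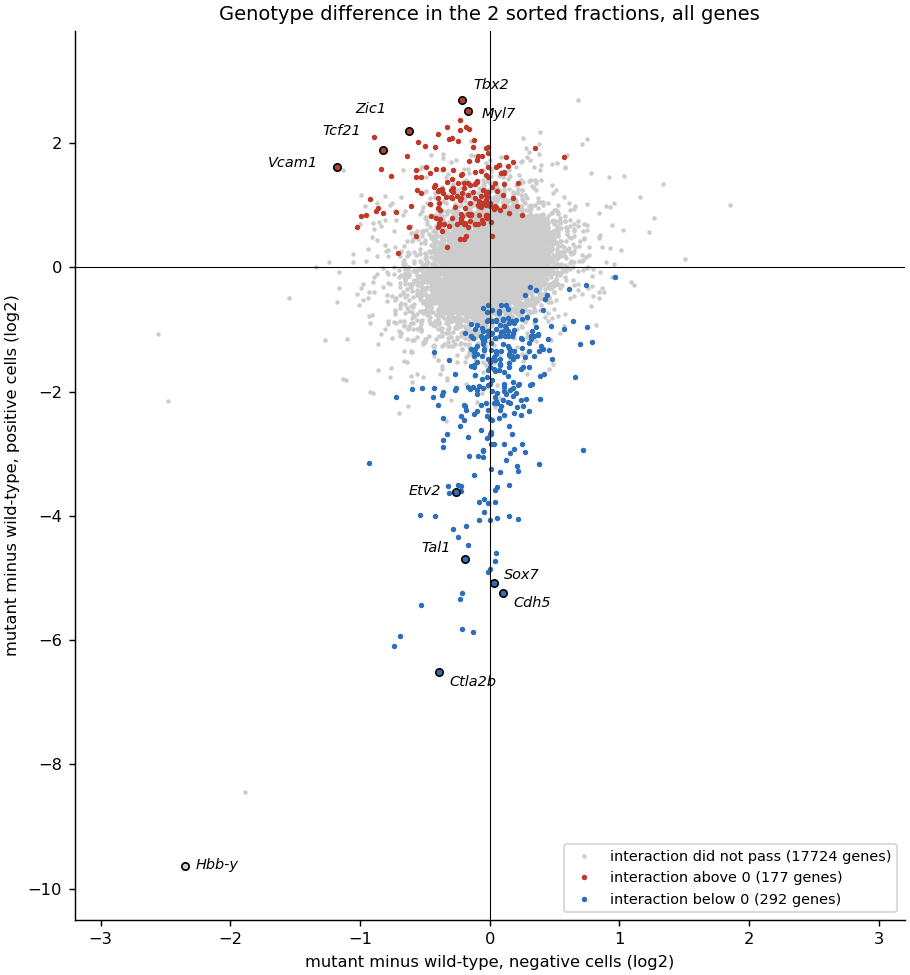
Difference between mutant and wild-type cells in the positive sort (vertical axis, log2) against the same difference in the negative sort (horizontal axis, log2) for 18193 genes, coloured where the interaction passed (177 above 0, 292 below 0). The coloured genes spread along the vertical axis and range from -1.18 to 0.97 on the horizontal one, and Hbb-y, below 0 in both sorts, did not pass.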

How the data were processed

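The 12 arrays were used as deposited. The authors' deposited values are log2 expression values, and the submitters' processing notes name RMA as the method. Its settings are not given in the sources, and scanner files were not used here. Biotin labelling used the MessageAmpII-Biotin Enhanced Kit, per the labels' protocols. Arrays have no read depth, and the 3 arrays per group limit the precision.

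Of 45101 probe sets, 34945 carried 1 gene symbol in the platform table, 932 several and 9160 were unlisted, and 64 were array controls. Each of 18193 genes was read from its brightest probe set on average, and dim probe sets were kept. The test was limma's moderated test (version 3.58.1, R 4.3.3) in 1 linear model of the 4 groups with 8 residual degrees of freedom. P-values were two-sided and adjusted by Benjamini-Hochberg over all genes, and errors beside differences are limma's moderated standard errors. Tables and figures used Python 3.11.15, pandas 2.3.3 and matplotlib 3.10.9. The fit was tested on simulated data. Alternatives changed the probe set rule, the filter, the normalization, the variance model, the samples in the fit and the replicate block.

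The members, the 43 gene lists (936 distinct genes measured) and the rule for named genes were chosen with earlier results of these data known. The result of 1 of these lists is not reported here. The rule takes the 5 markers and Etv2, the 20 largest rises and falls with arrays that do not overlap (clone-type symbols left out), the 6 members of each list with the lowest p at most, and the 10 largest interactions in each direction. Genes named outside it, such as Kdr, Cd34, Plvap, Tmem204, Cd93, Erg and those given as not passing, were chosen after their values were seen.

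Whether replicate numbers pair arrays was checked by the correlation, across genes, of deviations from the group means. Mutant and wild-type positive arrays of the same number gave -0.11, 0.001 and -0.022, so they share only a number. Positive and negative arrays of the same number gave 0.554, 0.403 and 0.413 in mutants and 0.19, 0.102 and 0.202 in wild types, so within a genotype the numbers were read as pairing them, which rests on the data, since the labels are silent.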

Additional observations from a re-analysis of the deposited data

Results flagged for a closer look

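The genotype difference was unequal in the 2 sorts for 24 genes, which is why they are listed here. They are the markers that passed, Etv2 and the 10 largest terms of each sign, which include Cdh5 and Myl7. The measure is limma's interaction term, which takes the difference in positive cells minus that in negative cells. Among the markers it was -5.34 for Cdh5, -4.5 for Tal1, 1.52 for Tbx5, 1.7 for Gata4 and 2.69 for Myl7, and it was -3.36 for Etv2. The genotype difference in negative cells was between -0.26 and 0.1 for these 6. The Gata4 term (adjusted p = 0.0158) did not pass without wild-type negative array 2 (adjusted p = 0.0528).

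The lowest terms beside Cdh5 were -6.11 for Ctla2b, -5.74 for Hemgn, -5.6 for Ctla2a, -5.35 for Klhl4, -5.25 for Hba-x, -5.12 for Sox7, -5.1 for Slc4a1, -5.04 for Mmrn2 and -4.9 for Icam2, with adjusted p from 3.88e-08 to 0.00333.

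The highest terms beside Myl7 were 2.99 for Lpar3, 2.91 for Tbx2, 2.82 for Zic1, 2.79 for Vcam1, 2.71 for Tcf21, 2.6 for Sh3bgr, 2.59 for Tnni1, 2.56 for Smarcd3 and 2.56 for Synpo2, with adjusted p from 0.000627 to 0.0239. Part of the term came from negative cells for Vcam1 (-1.18), Lpar3 (-0.89), Tcf21 (-0.82) and Zic1 (-0.62), which were lower in mutant than in wild-type negative cells without passing there. The Zic1 term did not pass without any 1 of mutant positive arrays 1 and 2, mutant negative arrays 1 to 3 and wild-type negative arrays 1 and 3 (adjusted p 0.0502 to 0.0709). The Sh3bgr term did not pass without wild-type negative array 2 (adjusted p = 0.0528) or with the mean of all probe sets (adjusted p = 0.0603).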

How the results depend on the processing

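Between mutant and wild-type positive cells, 844 genes passed when only these groups were fitted (385 higher), 647 at a minimum of 2-fold (274 higher, 373 lower) and 892 without the positive arrays numbered 1 of both genotypes (402 higher), a setting added after seeing the data. Without both wild-type arrays numbered 1 the rises were 505, and with every named probe set tested the falls were 1030. Leaving out 1 array gave 1032 to 1265 genes, 446 to 617 higher and 529 to 653 lower. With the replicate number as a block, 898 were higher and 743 lower. In negative cells, leaving out 1 array gave 0 to 2.

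The interaction passed for 842 genes with a random replicate block (400 above 0, 442 below) and 797 with fixed pairs of positive and negative arrays within a genotype, added after seeing the data (378 above). Leaving out 1 array gave 299 to 486 genes, 82 to 196 above 0 and 217 to 319 below. Mutant positive against mutant negative cells gave 1514 with the random block (862 higher, 652 lower), 1486 with fixed pairs (872 higher) and 543 at 2-fold (329 higher, 214 lower). Leaving out 1 array gave 677 to 840 genes, 368 to 484 higher and 257 to 413 lower.

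Of 131 named genes that passed between the positive groups, 115 passed under each alternative fitted for them, the 2-fold minimum aside, and 16 did not, and 9 of 29 that did not pass did so under some alternative. None of the 131 changed direction, while genes that did not pass could change sign. Of 1548 list counts, 234 moved by over 1.5 times. Mutant values near 5 lie below the arrays' 25th percentiles, where signal over background limits the size of a fall, and Hbb-bh1 lies near the brightest signal in wild-type cells. No gene that passed between the positive groups passed in the opposite direction under an alternative or the block that was compared gene by gene.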

Other observations

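Collagens other than Col1a2 also rose in mutant positive cells. Col6a1, Col6a2 and Col6a3, chains of collagen VI, a microfibril of loose connective tissue, passed. Col6a1 rose by 0.69 ± 0.14, Col6a2 by 0.45 ± 0.09 and Col6a3 by 0.57 ± 0.12 (limma, SE), with no overlap between the groups. None of these 3 passed when only the positive groups were fitted (limma adjusted p 0.0515 to 0.0632). Nor did any when the positive arrays numbered 1 of both genotypes were left out (adjusted p 0.0703 to 0.0946). Col6a1 did not pass without both wild-type arrays numbered 1 (adjusted p = 0.0503). Col14a1, a collagen that associates with fibrils, fell by 0.95 ± 0.17. It did not pass without the positive arrays numbered 1 of both genotypes (adjusted p = 0.0537). Of 25 collagens 8 rose and 1 fell. The rises numbered 5 without mutant positive array 1 or 2 or wild-type positive array 2 or 3. They numbered 2 when only the positive groups were fitted, and 2 without the positive arrays numbered 1 of both genotypes.

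Among 20 imprinted growth genes 4 rose, 2 without mutant positive array 3 or wild-type positive array 2. Nnat, an imprinted membrane protein, read 8.69, 9.29 and 8.16 on mutant positive arrays, against 7.58, 7.02 and 7.50 on wild-type positive arrays (2.55-fold). Of 31 Hox genes 4 rose, among them Hoxb1, a gene of posterior mesoderm and hindbrain, which averaged 10.97 in mutant positive, 9.44 in wild-type positive and 11.69 in mutant negative cells and was lost without mutant positive array 2 (limma adjusted p = 0.0728). Without 1 array the Hox count was 1 or 2 for mutant positive array 2 or 3 and for each wild-type positive array, and it was 1 after a further quantile normalization.

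Ano4, a membrane protein of the anoctamin family, was among the largest rises. It read 7.95, 7.65 and 7.86 on mutant positive arrays, against 5.86, 5.65 and 5.98 on wild-type positive arrays, and averaged 6.42 in mutant negative cells.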
